A study of Mus musculus with 23 samples.

Results

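The Runx genes Runx1, Runx2 and Runx3 and the gene of their shared partner, Cbfb, were followed through ATAC-seq peak lists of mouse blood monocytes, liver macrophages and cultured macrophages. ATAC-seq marks open chromatin by the DNA that a transposase can reach, so each value below is the openness of a stretch of DNA and not the RNA of a gene. Every peak of the 23 libraries whose nearest protein-coding gene body, within 50 kb, was one of the 4 genes was taken, and peaks that overlapped across libraries were merged into regions. This gave 151 regions of 155137 in all, of which 76 belonged to Runx1, 45 to Runx2, 22 to Runx3 and 8 to Cbfb. The regions were chosen by the presence of a peak in at least 1 library, and the genes were picked with earlier results of these libraries known, among them a Runx1 region that was lower at 48 h than at 24 h. Which groups have a peak is therefore given as a description, and the Runx1 values of that contrast carry no test.

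The 11 groups have 2 libraries each, except 1 group of 3. Ly6C-high monocytes came from the blood of C57BL/6J mice. Repopulating liver macrophages, abbreviated RLM, were taken 24 h (3 libraries) or 48 h after diphtheria toxin from Clec4f-cre/Rosa26iDTR mice, in which the Clec4f promoter drives cre, and with it the toxin receptor, in Kupffer cells. Resident Kupffer cells, the macrophages of the liver sinusoids, came from the same strain given PBS. TIM4+ Kupffer cells of Nr1h3 flox/flox mice were the control for TIM4+ and TIM4- cells of Nr1h3 flox/flox Clec4f-cre +/- mice, which lack the nuclear receptor LXR alpha where cre acts. The control titles also carry ClecNeg and the knockout titles ClecPos, and the labels do not say whether this names a sort gate or the cre genotype, so a difference in gating cannot be told apart from the knockout in the Nr1h3 comparisons. For the Smad4 libraries the titles and the strain labels disagree: those titled knockout are listed as Smad4 flox/flox, and those titled control as Smad4 flox/flox Clec4f-cre +/-. They are called titled knockout and titled control throughout, and if the strain labels hold instead, each direction given for them turns. Bone-marrow-derived macrophages, BMDM, of C57BL/6J mice were cultured for 4 days and left untreated or given the Notch ligand DLL4 for 24 h. The labels number the mice only for the blood, RLM and PBS Kupffer libraries. The Smad4 titles each carry a different number that is not named as a mouse. Outside the blood, RLM and PBS Kupffer libraries the p-values therefore measure the spread between libraries, which may be technical.

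RUNX proteins bind DNA through the Runt domain, and CBF beta, the product of Cbfb, binds no DNA itself but stabilises a RUNX protein on its site. Runx1 is needed for definitive blood formation and is a leukaemia gene, Runx2 is the master regulator of bone-forming cells, and Runx3 acts in T, NK and dendritic cells and in sensory neurons. Each Runx gene has a distal and a proximal promoter, whose transcripts differ at the N terminus of the protein.

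The first listed starts of the 3 Runx genes (the distal one in Runx1 and Runx3, the only one listed in Runx2) share an 18-letter word, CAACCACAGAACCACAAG, which holds the RUNX core site TGTGGT 2 times on the opposite strand. It is shown because it lies in the promoters whose openness is described below. In the RefSeq promoter table of GRCm38.p6 (mm10), windows of 300 bases from 250 bases before to just after each start, both strands, held the word in 4 of 32851 cases (0.0122%): those of Runx1, Runx2 and Runx3 and that of Gm16225, a non-coding gene that faces away from Runx3 over the same bases. The word was picked after the sequences were seen, and a match is a description and not a bound site. The 30-base sites are given 5′ to 3′ on the gene's own strand with the word in capitals: Runx1 at chr16:92826025-92826054 (minus strand), Runx2 at chr17:44814583-44814612 (minus strand) and Runx3 at chr4:135120503-135120532 (plus strand).
Runx1: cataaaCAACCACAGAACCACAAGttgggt
Runx2: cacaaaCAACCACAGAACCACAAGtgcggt
Runx3: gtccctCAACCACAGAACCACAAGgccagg

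The word begins at base 27 after the Runx1 start and base 22 after the Runx2 start, but at base -136, ahead of the start, in Runx3. Below are the 250 bases before 3 starts whose peaks the results turn on, with the core ACCACA, which is TGTGGT read on the other strand, in capitals. The core was searched on both strands and was present in the 250 bases before 14.0% of the 32851 starts. The Runx3 distal stretch (chr4:135120395-135120644, plus strand) holds it 2 times, and the Runx3 proximal stretch (chr4:135152295-135152544, plus strand) and the Runx1 distal stretch (chr16:92826075-92826324, minus strand) do not hold those letters.
Runx3 distal: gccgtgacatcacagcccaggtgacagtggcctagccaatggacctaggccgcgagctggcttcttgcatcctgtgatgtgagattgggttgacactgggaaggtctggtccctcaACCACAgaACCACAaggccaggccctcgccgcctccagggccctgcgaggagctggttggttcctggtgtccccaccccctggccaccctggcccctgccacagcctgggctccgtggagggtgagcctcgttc
Runx3 proximal: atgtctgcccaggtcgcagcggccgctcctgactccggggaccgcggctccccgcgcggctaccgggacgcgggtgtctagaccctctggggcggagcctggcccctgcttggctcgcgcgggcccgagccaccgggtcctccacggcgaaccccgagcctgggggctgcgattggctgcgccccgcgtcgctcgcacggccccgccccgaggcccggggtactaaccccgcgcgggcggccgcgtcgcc
Runx1 distal: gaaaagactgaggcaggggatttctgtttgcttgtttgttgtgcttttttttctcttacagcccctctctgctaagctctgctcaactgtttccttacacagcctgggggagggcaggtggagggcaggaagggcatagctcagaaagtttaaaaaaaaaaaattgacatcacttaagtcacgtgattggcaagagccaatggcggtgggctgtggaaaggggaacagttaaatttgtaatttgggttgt

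The proximal promoters are the more GC-rich. G and C made up 78.8% of the Runx3 proximal stretch, with 38 CpG pairs, against 65.2% and 8 pairs in its distal stretch. For Runx1 they made up 67.6% of the proximal stretch, with 27 pairs, and 45.6% of the distal stretch, with 2 pairs. The Cbfb stretch had 69.2% and 25 pairs, and the 1 Runx2 start in the table had 44.8% and 0 pairs.

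The libraries held 10.4 to 18.4 M tags (M for mega) and 48775 to 104206 deposited peaks, and 15.4% to 54.7% of their tags lay in peaks. Values are normalised tag counts, the tags of a peak scaled to a library of 10 M tags, and each library was scaled by itself, so levels set side by side across experiments carry no common scaling. The caller needed 8 to 11 tags for a peak. Within groups, libraries shared 71.2% to 78.8% of their regions, and the log signal of shared regions had a Pearson r of 0.928 to 0.970. The marker check went with the labels in part: Timd4 had no peak in blood, 24 h or 48 h libraries and had one in each Kupffer group, also in the cells sorted as TIM4-, and in BMDM. The monocyte markers Chil3 and S100a4 had no peak in PBS Kupffer cells. In such bulk libraries fewer cells with an open region and less opening per cell cannot be told apart.

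The regions of the 4 genes were spread much as regions in general. Peaks in all 23 libraries were found in 21 of the 151 (13.9%, against 17.2% of all regions), and 27 had a peak in 1 library only (17.9%, against 16.7%). Inside the gene body lay 56 of 76 Runx1 regions, 42 of 45 Runx2 regions, 13 of 22 Runx3 regions and 6 of 8 Cbfb regions. The exon structure was not used here. A region is named by the distance in kb from the gene's first start to its centre, positive in the direction of transcription. Runx1 occupies chr16:92601466-92826074 (minus strand), Runx2 chr17:44495987-44814797 (minus strand), Runx3 chr4:135120645-135177990 (plus strand) and Cbfb chr8:105170674-105217989 (plus strand). The Runx2 body overlaps that of Supt3, and 5 regions inside both were given to Supt3 and 1 to Runx2. The 50 kb limit fell between regions of different strength. For Runx3 the farthest region inside the 50 kb limit, 46.8 kb from the body, had 18.3 to 26.2 in 4 libraries, while the next one, 50.5 kb away and left out, had 40.3 to 246.4 in all 23. For Runx1 the farthest member region, 48.0 kb from the body, had 45.8 to 142.7 in 23 libraries, and the next one, at 54.6 kb, 7.66 to 13.1 in 7. For Runx2 the pair lay at 40.0 kb (8.94 to 46.5 in 16 libraries) and 57.2 kb (6.66 to 13.4 in 8). For Cbfb they lay at 9.31 kb (7.33 in 1 library) and 51.6 kb, a region assigned to Hsf4 (20 to 117.7 in 23).

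The number of regions with a peak set the groups in a different order for each gene. Runx1 had the most in BMDM (42 to 49 untreated, 43 to 46 with DLL4), then in blood monocytes (33 to 37), 48 h RLM (32 to 37), TIM4- Nr1h3 knockout cells (34 in both) and 24 h RLM (29 to 35), and fewer in the other Kupffer groups (23 to 27 in the Nr1h3 control, 22 to 23 with PBS, 21 to 22 in TIM4+ knockout cells, 21 in titled Smad4 controls and 18 to 20 in titled knockouts). Neighbouring groups in this order overlapped in range except DLL4 BMDM and blood, 24 h RLM and the Nr1h3 control, and the 2 Smad4 groups. Runx2 followed a like order, with 29 to 31 in BMDM, 29 to 30 with DLL4, 23 to 27 in blood, 20 to 28 at 48 h and 19 to 22 at 24 h. It then dropped to 11 to 15 in TIM4- knockout cells and to 5 to 9 in the remaining Kupffer groups, whose ranges overlapped along the order. For Runx3 the blood, 24 h and 48 h libraries each had 14 to 16, DLL4 BMDM 15 in both and untreated BMDM 12 to 15. TIM4- knockout cells had 10 to 13, titled Smad4 knockouts 9 to 11, titled controls 8 to 10, TIM4+ knockout cells 7 to 8 and the Nr1h3 control 6 to 7. The PBS Kupffer cells had 1 in each library, below every other group, and all neighbours above them overlapped. Cbfb had 5 to 6 in untreated BMDM, 2 in TIM4+ knockout cells and 3 to 4 in the rest. These counts depend on the length of the peak lists. Of all regions, 54.5% to 66.4% had a peak in untreated BMDM, 59.1% to 62.0% with DLL4, 42.1% to 45.7% in blood and 47.7% to 53.5% at 48 h. The share was 43.5% to 43.6% in TIM4- knockout cells and 39.6% to 41.5% in PBS Kupffer cells. In the same order Runx1 had 55.3% to 64.5%, 56.6% to 60.5%, 43.4% to 48.7%, 42.1% to 48.7%, 44.7% and 28.9% to 30.3%. Of these 6 groups, only PBS Kupffer cells were clearly below the share of all regions, and the Kupffer groups not yet listed were below it too. Runx1 had 30.3% to 35.5% in the Nr1h3 control, against 37.0% to 41.6% of all regions. In TIM4+ knockout cells it had 27.6% to 28.9%, against 31.0% to 34.3%. Titled Smad4 controls had 27.6% in both libraries, against 38.4% to 42.8%, and titled knockouts 23.7% to 26.3%, against 31.3% to 36.4%. Runx2 was below the share of all regions in every Kupffer group. It had 24.4% to 33.3% in TIM4- knockout, 17.8% to 20% in PBS Kupffer and 15.6% to 20% in Nr1h3 control cells. TIM4+ knockout cells had 15.6% in both libraries, titled Smad4 controls 11.1% to 15.6% and titled knockouts 13.3% to 17.8%. In blood Runx2 had 51.1% to 60%, at 24 h 42.2% to 48.9% (all regions 40.5% to 43.9%) and at 48 h 44.4% to 62.2%. BMDM had 64.4% to 68.9% untreated and 64.4% to 66.7% with DLL4. With every list held to its 48720 strongest peaks, Runx1 had 18 to 20 at 48 h and 19 in both PBS Kupffer libraries, ranges that overlapped. It had 22 to 24 in TIM4- knockout cells and 22 in both Nr1h3 control libraries. These also overlapped each other, and they lay above the 48 h and PBS Kupffer ranges. Runx2 then had 16 to 17 in blood, 12 to 18 at 24 h, 6 to 10 at 48 h, 7 in both TIM4- libraries, 5 to 7 in PBS Kupffer cells, 13 to 14 in untreated BMDM and 8 to 9 with DLL4. Runx3 had 13 to 14 in blood and at 24 h, 14 in both 48 h libraries and 1 in both PBS Kupffer libraries, but 4 to 8 in untreated BMDM, 9 to 11 with DLL4, 7 to 9 in TIM4- cells and 4 to 5 in their control.

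**Figure D1:**
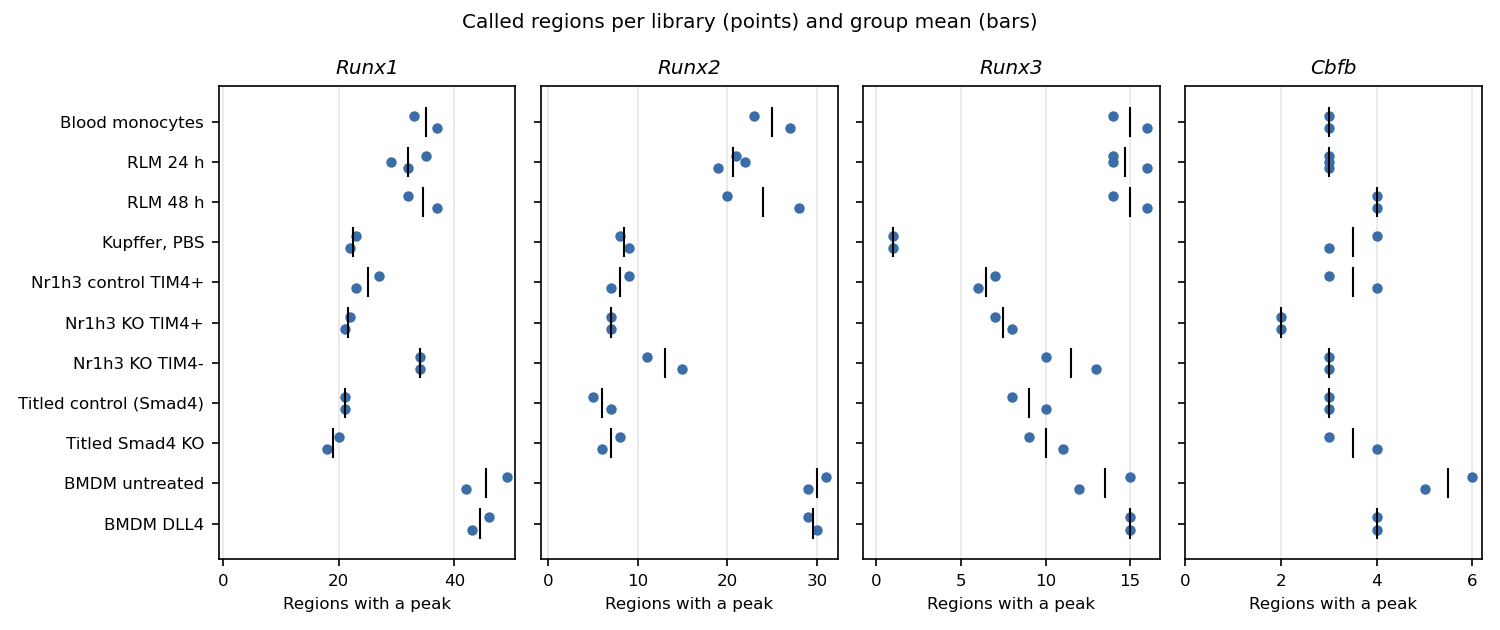
Regions with a peak in each library (points) and the group mean (bars) for the 4 genes, with the number of regions on the horizontal axis and the 11 groups on the vertical axis. Runx3 has 1 called region in both PBS Kupffer libraries and 14 to 16 in every blood and RLM library.

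Runx3 was the gene with the fewest called regions in PBS Kupffer cells, but not in the control Kupffer groups of the other experiments. The Nr1h3 control had 6 to 7 Runx3 regions against 3 to 4 of Cbfb, and titled Smad4 controls had 8 to 10 against 3. Each PBS Kupffer library had a peak in 4.55% of the 22 Runx3 regions, while 39.6% to 41.5% of all regions had one in those libraries. Of 16 Runx3 regions called in any PBS Kupffer or 48 h RLM library, 13 had a peak in both 48 h libraries and in neither Kupffer library, against 12.8% of all regions. Against blood monocytes it was again 13 of 16, where the share of all regions was 15.9%. Both counts rest on the same 2 Kupffer libraries. In these the caller needed 9 tags, which is 8.53 to 8.63 on the normalised scale, and in the 48 h libraries 8 tags, or 5.87 to 6.97. The Kupffer libraries held 10.4 to 10.6 M tags with 32.6% to 36.6% in peaks, and the 48 h libraries 11.5 to 13.6 M with 42.0% to 44.5%. The part of depth and of the tags in peaks in these counts was not tested.

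The strongest of the 13 was the region at +72.4 kb (chr4:135192845-135193227), beyond the 3′ end of Runx3. It read 90.3 and 143.1 in blood, 106.7, 79 and 89.2 at 24 h and 107.2 and 128.4 at 48 h. The PBS Kupffer libraries had no peak there, and their nearest peak lay 10007 bp away. Kupffer cells of the other experiments did have one, at 15 and 19.8 in the Nr1h3 control and 15.1 and 6.01 in titled Smad4 controls, so its absence was not shared by all Kupffer groups. It read 33.8 and 25.9 in TIM4+ and 86 and 68.6 in TIM4- Nr1h3 knockout cells, 36.8 and 51.5 in titled Smad4 knockouts, 69.4 and 53.4 in untreated BMDM and 137.3 and 113.6 with DLL4. In each of these 4 pairs of groups the libraries did not overlap, and the knockout, titled knockout or DLL4 libraries were the higher.

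The differences at this region passed the test in all 4 comparisons. The test was limma on log2(value + 1) after centring each library by its median. It ran over all regions with a peak in each library of the compared groups, called shared regions below, and p-values were adjusted over all of them. The log2 difference was 1.69 ± 0.24 (SE, limma adjusted p = 1.2e-09) in TIM4- and 1.05 ± 0.28 (limma adjusted p = 0.0057) in TIM4+ knockout cells, which share their control libraries. It was 2.40 ± 0.30 (limma adjusted p = 4.58e-09) in titled Smad4 knockouts and 0.99 ± 0.16 (limma adjusted p = 6.5e-06) with DLL4. The TIM4+ call was lost without TIM4+ knockout replicate 1 (0.72), without control replicate 1 (0.72) and without centring (0.75). Between TIM4- and TIM4+ knockout cells the difference was 0.60 ± 0.22 and did not pass (limma adjusted p = 0.159).

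The single Runx3 region open in every library was that at +61.4 kb (chr4:135181823-135182258), also beyond the 3′ end. It read 51.3 and 92.3 in blood, 58, 60.8 and 49.3 at 24 h, 54.9 and 60.9 at 48 h and 24.6 and 23 in PBS Kupffer cells, the lowest group of that experiment. Kupffer cells were lower than 48 h RLM by 0.96 (log2 difference -0.96 ± 0.29, limma adjusted p = 0.00911) and than blood (-1.10 ± 0.29, limma adjusted p = 0.000908). The first call was lost without 48 h replicate 1 (-0.99) or 2 (-0.93) and the second without blood replicate 2 (-0.89). In TIM4- knockout cells it read 77.8 and 85 against 40.5 and 37.6 in the control (0.64 ± 0.20, limma adjusted p = 0.018). That call was lost without either knockout replicate (0.73 and 0.58), without control replicate 1 (0.53), after quantile normalisation (0.59) and with peaks of at least 15 only (0.56).

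Both Runx3 promoters lacked a peak in most Kupffer libraries. The distal promoter region (-0.1 kb, chr4:135120312-135120698) had no peak in any Kupffer library except 1 of TIM4- knockout cells (5.45). The proximal promoter region (+31.8 kb, chr4:135152128-135152663) had a peak in only 2 Kupffer libraries, 1 of TIM4- knockout cells (8.17) and 1 titled Smad4 control (9.29). In blood the distal promoter read 26 and 32.4 and the proximal one 77.3 and 95.9. The distal promoter read 30, 33.6 and 59.7 at 24 h and 38.3 and 35.9 at 48 h. The proximal promoter stood at 59, 58.1 and 57.9 at 24 h and at 25.3 and 30.1 at 48 h, with no overlap between these times (58.3 ± 0.586, SD, n = 3, and 27.7 ± 3.39, SD, n = 2). At 24 h against blood, 2 other Runx3 regions were lower. That at +58.6 kb went from 80.6 and 102.9 to 41.2, 40 and 38.9 (-0.90 ± 0.24, limma adjusted p = 0.00562), and that at +8.3 kb from 82.2 and 88.8 to 44, 50.8 and 39.8 (-0.66 ± 0.24, limma adjusted p = 0.0422). The first lost its call without either blood library (-0.89 and -0.94) and the second without 24 h replicate 1 (-0.63) or either blood library (-0.53 and -0.81).

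Both Runx3 promoters were higher in BMDM given DLL4. The proximal promoter went from 7.99 and 9.63 to 42.9 and 44.5, a log2 difference of 2.16 ± 0.31 (limma adjusted p = 7.57e-08), the largest among the members in this comparison. The distal promoter went from 13.5 and 25.4 to 53.8 and 32.2 (1.09 ± 0.28, limma adjusted p = 0.0105). The distal call was lost without DLL4 replicate 1 (0.72), without untreated replicate 1 (0.57) and after quantile normalisation (1.07). A region at -40.0 kb (chr4:135080227-135080993) went from 25.2 and 18.4 to 54.5 and 48.6 (1.18 ± 0.25, limma adjusted p = 0.00108), and lost the call without DLL4 replicate 1 (1.10) or untreated replicate 1 (1.31).

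**Figure D2:**
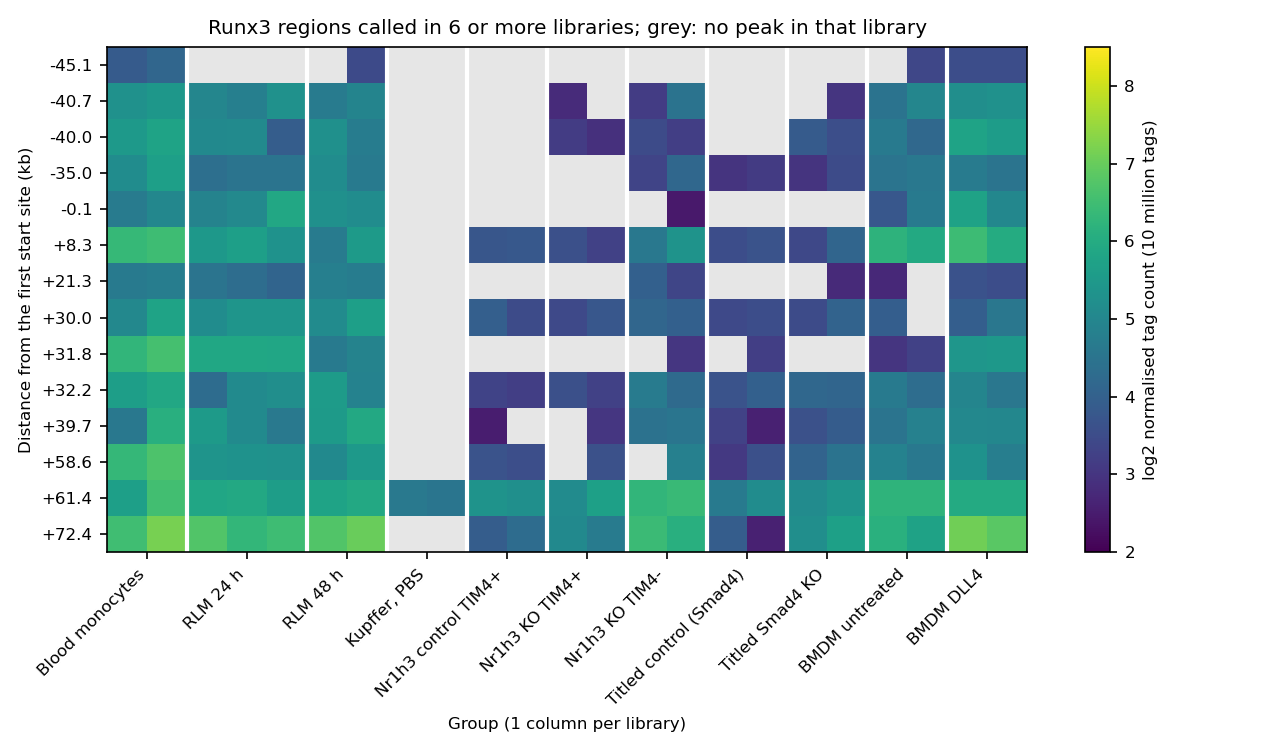
Signal of the 14 Runx3 regions called in at least 6 libraries, as the log2 of the normalised tag count (colour), by distance from the first start in kb (vertical axis) and library (1 column each, by group); grey means no peak. The PBS Kupffer columns are grey except at +61.4 kb, and +31.8 kb is bright in blood and 24 h RLM and brighter with DLL4 than without.

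Because Runx3 is expressed by T and NK cells, a list of 13 T and NK cell genes with 54 regions was read beside it. PBS Kupffer libraries had peaks in 14 to 18 of these regions, with a summed signal of 414 to 501, and 48 h libraries in 23 to 30, with 751 to 815. Blood libraries had peaks in 23 to 28 (742 to 1103) and 24 h libraries in 20 to 24 (762.5 to 829). Of all regions, 39.6% to 41.5% had a peak in PBS Kupffer cells and 47.7% to 53.5% at 48 h. The share was 42.1% to 45.7% in blood and 40.5% to 43.9% at 24 h. Cd3e, Cd3g, Cd8a and Gzma had no peak in PBS Kupffer or 48 h libraries, and Il2rb and Nkg7 had none in the Kupffer libraries. Cd3d, Lck, Zap70, Ncr1, Klrb1c, Eomes and Tbx21 had peaks in both groups. TIM4- knockout libraries had peaks in 27 to 28 (summed signal 636 to 645), TIM4+ knockout libraries in 16 to 17 (313 to 376) and their control in 22 (370 to 423). Titled Smad4 knockouts had peaks in 14 to 17 (254 to 355) and titled controls in 22 (355 to 444). Untreated BMDM had peaks in 24 to 33 (914 to 1072) and DLL4 BMDM in 25 to 28 (1014 to 1066). The shares of all regions were 43.5% to 43.6% in TIM4- knockout, 31.0% to 34.3% in TIM4+ knockout and 37.0% to 41.6% in Nr1h3 control libraries. They were 31.3% to 36.4% in titled Smad4 knockouts, 38.4% to 42.8% in titled controls, 54.5% to 66.4% in untreated BMDM and 59.1% to 62.0% with DLL4. The part of such cells in the Runx3 results was not tested.

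Runx2, the bone regulator, had 45 regions, and a single one differed in 5 comparisons. The region at +150.6 kb (chr17:44663888-44664160), inside the gene body and open in every library, read 122.1 and 229.8 in blood, 78.6, 85.4 and 132.8 at 24 h and 75 and 119.6 at 48 h. It read 19 and 14.4 in PBS Kupffer cells, 13.9 and 9.24 in the Nr1h3 control and 8.48 and 10.4 in titled Smad4 controls. All 6 libraries of these 3 groups lay below every other library of the series. TIM4- knockout cells read 91.9 and 88.2, TIM4+ knockout cells 27.4 and 41.6, titled Smad4 knockouts 35.2 and 37.2, untreated BMDM 129.6 and 131.4 and DLL4 BMDM 144.6 and 112.2.

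PBS Kupffer cells were lower than 48 h RLM at this region (log2 difference -2.17 ± 0.29, limma adjusted p = 2.95e-08) and than blood monocytes (-2.87 ± 0.26, limma adjusted p = 3.6e-15). TIM4- knockout cells were higher than the Nr1h3 control by 2.48 ± 0.25 (limma adjusted p = 3.58e-18) and TIM4+ knockout cells by 1.80 ± 0.29 (limma adjusted p = 1.63e-07). Titled Smad4 knockouts were higher than titled controls by 2.17 ± 0.28 (limma adjusted p = 2.59e-08). None of these 5 calls was lost under any alternative tried. The remaining differences did not pass: -0.53 ± 0.21 at 24 h against blood, 0.64 ± 0.21 for TIM4- against TIM4+ knockout cells and -0.07 ± 0.14 with DLL4. The Kupffer and 24 h comparisons share the blood libraries, and the Nr1h3 comparisons share theirs.

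The region at +355.5 kb (chr17:44458993-44459281), beyond the 3′ end of Runx2, ran the other way. It read 19.5 and 19 in blood, 41.2, 29.1 and 18 at 24 h, 59.3 and 65.3 at 48 h and 120.4 and 116 in PBS Kupffer cells. Kupffer cells lay above all blood and RLM libraries, and differed from 48 h RLM by 1.20 ± 0.20 (limma adjusted p = 7.93e-06) and from blood by 2.95 ± 0.27 (limma adjusted p = 3.36e-15). The difference between 24 h and blood, 0.78 ± 0.34, did not pass (limma adjusted p = 0.0896), and both 48 h libraries lay above the 24 h ones. The other experiments read 40.9 to 92 in the Nr1h3 groups, 32.9 to 65.4 in the Smad4 groups and 37.8 to 62.3 in BMDM, with no call in them.

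Other Runx2 regions had lower signal after blood monocytes. At +78.4 kb (chr17:44735831-44736638) the values were 76.5 and 103.6 in blood, 29, 16.3 and 41.7 at 24 h and 16.1 and 11.5 in PBS Kupffer cells. It was lower at 24 h (-1.41 ± 0.31, limma adjusted p = 0.00109) and in Kupffer cells (-2.23 ± 0.30, limma adjusted p = 4.35e-09) than in blood, and neither pair of groups overlapped. At 24 h against blood the region at +200.6 kb also fell (-1.24 ± 0.32), a call lost without blood replicate 2 (-1.05), and so did +120.8 kb (-1.09 ± 0.31), lost without blood replicate 1 (-1.14) or 2 (-1.06). At +86.7 kb it rose by 1.19 ± 0.33, from 13 and 15.5 to 25.3, 23.6 and 36, lost without blood replicate 1 (1.25) or 2 (1.09) and without centring (0.92). Of the 29 Runx2 regions called in any PBS Kupffer or 48 h library, 12 had a peak in both 48 h libraries and no Kupffer library, against 12.8% of all regions. The strongest of these was +111.6 kb (33.0 ± 1.06, SD, n = 2). Against blood it was 14 of 30, against 15.9% of all regions, with +89.3 kb the strongest (48.8 and 64.8). The region at +159.9 kb read 29, 24.5 and 36 at 24 h and 10.5 and 10.3 at 48 h and had no Kupffer peak.

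TIM4- knockout cells differed from the control at 2 further Runx2 regions. At +104.6 kb (chr17:44709901-44710191) they read 43 and 32.7 against 12.7 and 11.2 (1.17 ± 0.29, limma adjusted p = 0.00166), a call lost without knockout replicate 1 (1.01). At the listed start (-0.1 kb, chr17:44814609-44814871) they read 10 and 10.9 against 15 and 15.8 (-0.92 ± 0.33, limma adjusted p = 0.0466). The start lost its call when any 1 library was left out (-1.12 to -0.73), without centring (-0.52) and after quantile normalisation (-0.73). That start had a peak in 10 of 23 libraries, none above 15.8, and in no 24 h RLM, Smad4 or DLL4 library.

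**Figure D3:**
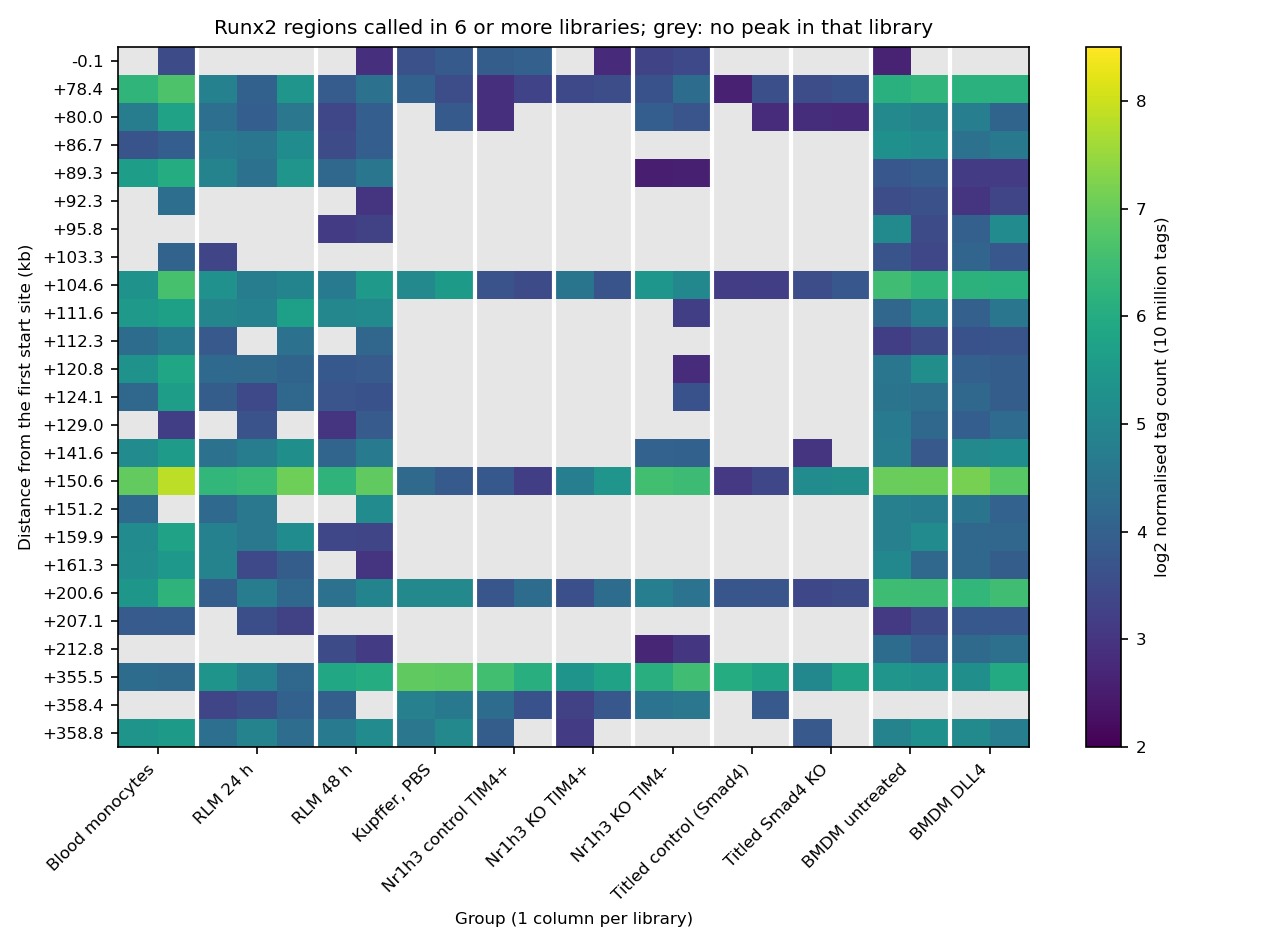
Signal of the 25 Runx2 regions called in at least 6 libraries, as the log2 of the normalised tag count (colour), by distance from the first start in kb (vertical axis) and library (1 column each, by group); grey means no peak. At +150.6 kb the blood, RLM, TIM4- knockout and BMDM libraries are bright and the PBS Kupffer, Nr1h3 control and titled Smad4 control libraries are dark, while +355.5 kb is brightest in PBS Kupffer cells.

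Runx1, the blood-formation gene, kept both promoters open in every library. The distal promoter region (+0.1 kb, chr16:92825859-92826112) read 104.2 and 145.2 in blood, 52.4, 51.8 and 99.6 at 24 h, 86.3 and 96.1 at 48 h and 34.1 and 51.8 in PBS Kupffer cells. The proximal promoter region (+128.6 kb, chr16:92697299-92697571) read 144.1 and 187.5, then 131.1, 82.6 and 87.3, then 110.7 and 77, and 73.9 and 72.9 in the same groups. The Kupffer libraries were below both blood libraries at each promoter and below both 48 h libraries too.

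At the distal promoter Kupffer cells were lower than blood (-1.13 ± 0.22, limma adjusted p = 1.68e-05) and than 48 h RLM (-0.81 ± 0.23, limma adjusted p = 0.00641). The second call was lost without Kupffer replicate 1 (-0.56) or 48 h replicate 2 (-0.77). At the proximal promoter they were lower than blood (-0.76 ± 0.19, limma adjusted p = 0.000553), and the difference from 48 h RLM, -0.04 ± 0.21, did not pass (limma adjusted p = 0.902). Titled Smad4 knockouts read 54.1 and 59.5 at the proximal promoter against 26 and 50.3 (0.97 ± 0.21, limma adjusted p = 0.00114), lost without titled control replicate 1 (0.65) and without centring (0.63). The distal promoter at 24 h was lower than in blood by -0.65 ± 0.25 (limma adjusted p = 0.0495), with a call lost without 24 h replicate 1 (-0.48) or 2 (-0.49) or either blood library (-0.71 and -0.63).

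Upstream of Runx1, several regions were open in every library, and 3 of them were higher in 24 h RLM and PBS Kupffer cells than in blood. The region at -35.7 kb (chr16:92861633-92861940) read 23.6 and 28.2 in blood, 74, 62.7 and 68.3 at 24 h, 84.5 and 89.5 at 48 h and 65.4 and 97.8 in PBS Kupffer cells. It rose by 1.63 ± 0.26 at 24 h (limma adjusted p = 2.48e-05) and stood 1.99 ± 0.27 above blood in Kupffer cells (limma adjusted p = 4.78e-09). The region at -21.9 kb (chr16:92847813-92848098) did likewise, from 15.5 and 24.7 in blood to 44.9, 49.9 and 32.2 at 24 h and 47.4 and 52.7 in Kupffer cells (1.32 ± 0.31, limma adjusted p = 0.00179, and 1.70 ± 0.31, limma adjusted p = 4.47e-06). In neither region did blood overlap the RLM or PBS Kupffer libraries. The Smad4 libraries read 25.7 to 39.1 at -35.7 kb, which overlapped blood, and 26.8 to 38.2 at -21.9 kb, which did not. The Nr1h3 libraries read 62.1 to 107.8 and 42.9 to 93.7, above blood at both. At -41.4 kb blood read 61 and 131.8 and overlapped Kupffer cells (105.2 and 118.9), and the calls against blood (0.87 ± 0.19 at 24 h, 0.71 ± 0.20 in Kupffer cells) were lost without blood replicate 1 (0.50 and 0.32) and without centring (0.60 and 0.31). The strongest region, at -38.3 kb (chr16:92864259-92864543), read 199.4 and 241.7 in blood and 128.9 and 163.9 in Kupffer cells and passed in no comparison.

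The 3′ end of Runx1 showed the opposite order. The region at +213.4 kb (chr16:92612446-92612849) read 87.1 and 95.1 in blood, 30, 13.6 and 37.9 at 24 h, 12.2 and 21.3 at 48 h, and had no peak in any Kupffer library of the series. It fell by 1.56 from blood to 24 h (log2 difference -1.56 ± 0.33, limma adjusted p = 0.000636). The region at +205.2 kb (chr16:92620779-92621035) read 83.8 and 118.4 in blood, 46.8, 36.3 and 82.5 at 24 h and 11.3 and 16.1 at 48 h, again with no Kupffer peak. The 48 h libraries lay below all 24 h libraries there, the drop for which the gene was picked. The region at +228.2 kb (chr16:92597740-92598021) read 68.4 and 67.7 in blood, 29, 21.8 and 14.2 at 24 h and 20 and 26.4 at 48 h (-1.40 ± 0.31 at 24 h against blood, limma adjusted p = 0.00116, lost without blood replicate 1, at -1.21). In BMDM these regions were open, and with DLL4 the signal at +213.4 kb went from 86.6 and 68.3 to 50.9 and 37.6 (-0.83 ± 0.20, limma adjusted p = 0.00398) and that at +205.2 kb from 114.3 and 101.6 to 69 and 67 (-0.69 ± 0.16, limma adjusted p = 0.00449). The first of these calls was lost without DLL4 replicate 2 (-0.61) or untreated replicate 1 (-0.75), and the second without untreated replicate 1 (-0.69) or 2 (-0.70).

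Within the Runx1 body, the region at +24.4 kb (chr16:92801402-92802010) read 98.5 and 104.3 in blood and 87.6 to 111.2 in BMDM, against 7.87 to 22.9 in the Kupffer libraries that had a peak. It was 42.1, 18.2 and 52.2 at 24 h (-1.27 ± 0.31 against blood, limma adjusted p = 0.00287, lost without blood replicate 1, at -1.13). The region at +25.0 kb, next to it, was highest in BMDM, at 92 to 113.4, and read 21.7 and 16.4 in TIM4+ knockout cells against 45.1 and 40.9 in the control (-0.84 ± 0.26, limma adjusted p = 0.0227). That call was lost without knockout replicate 2 (-0.50) or either control library (-0.91 and -0.75). With DLL4, +38.9 kb fell from 114.9 and 106 to 52.3 and 67.7 (-0.91 ± 0.17, limma adjusted p = 8.61e-05) and +3.8 kb rose from 49.1 and 51.7 to 91.6 and 95.1 (0.84 ± 0.18, limma adjusted p = 0.00117). Both were lost without untreated replicate 1 (-0.94 and 0.72). At +110.4 kb blood read 44 and 69.8 and PBS Kupffer cells 18 and 21.1 (-1.07 ± 0.31, limma adjusted p = 0.00249, lost without blood replicate 2, at -0.94). In TIM4- knockout cells no Runx1 region passed, and the largest difference was at that region (-0.70 ± 0.29, limma adjusted p = 0.088). The strongest Runx1 region called in PBS Kupffer cells and not in blood was -39.5 kb (54 and 65.2), 937 bp from a blood peak, and against 48 h RLM it was +125.9 kb (27.5 and 29.7).

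**Figure D4:**
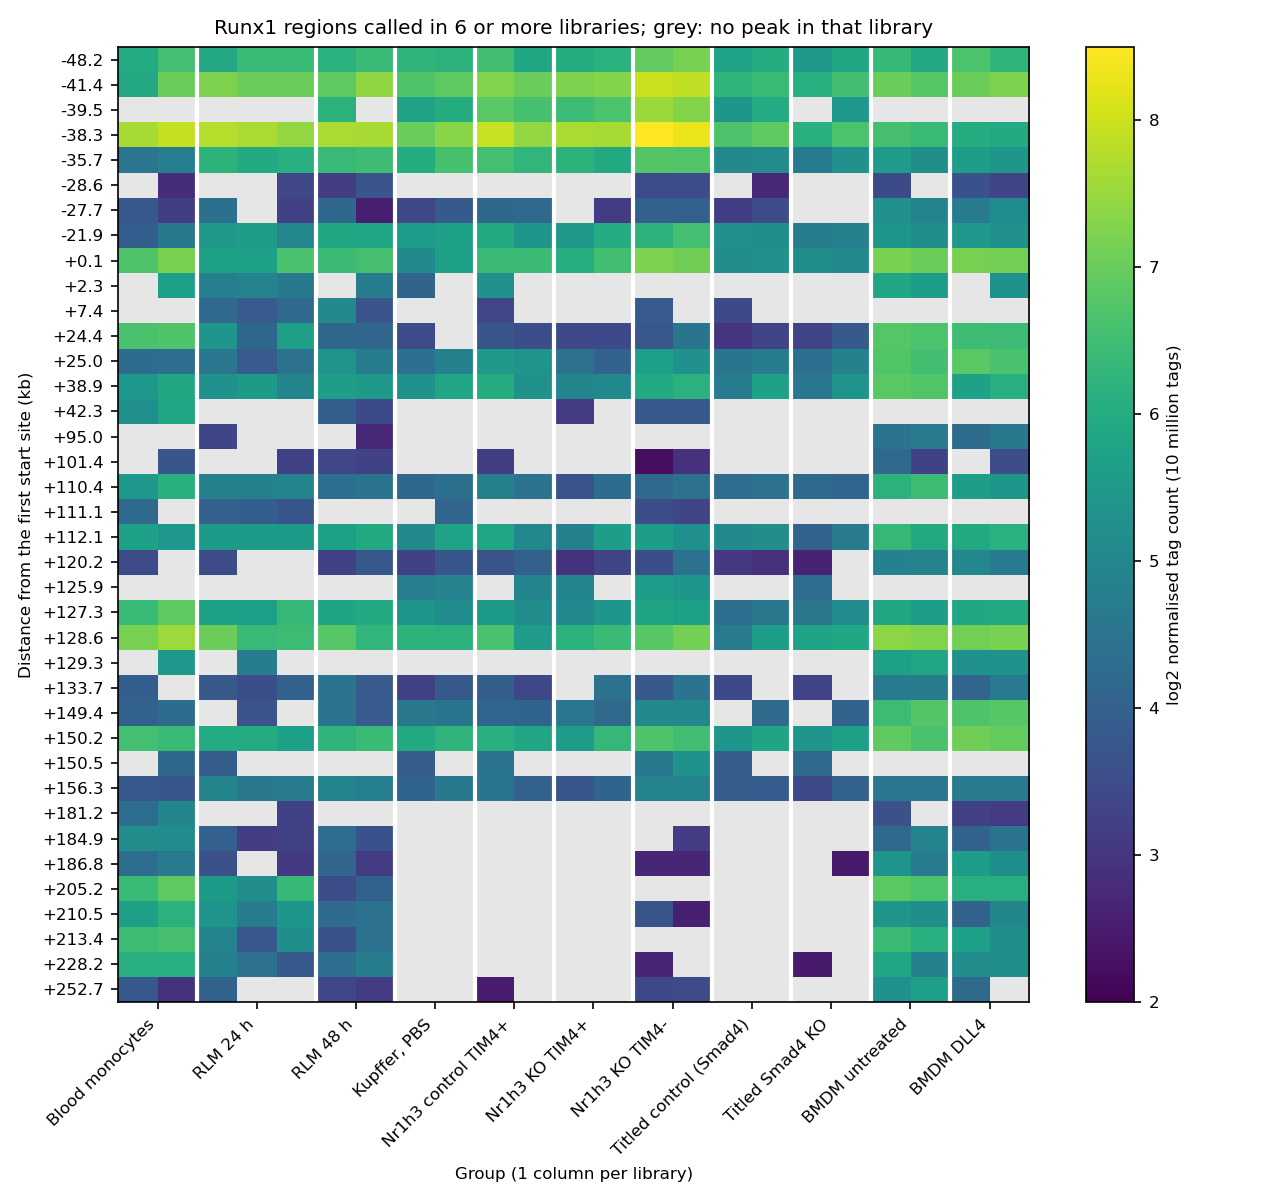
Signal of the 38 Runx1 regions called in at least 6 libraries, as the log2 of the normalised tag count (colour), by distance from the first start in kb (vertical axis) and library (1 column each, by group); grey means no peak. The regions at -48.2, -41.4, -38.3 and -35.7 kb have a peak in every library, and those at +205.2 and +213.4 kb are grey in all Kupffer groups.

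Cbfb, the partner gene, had its strongest region at the promoter. This region (-0.1 kb, chr8:105170340-105170766) was open in every library and read 60.2 to 94.6 in the Smad4 libraries, 93.7 to 192.1 in the Nr1h3 libraries, 103.3 and 141.9 in PBS Kupffer cells, 146.7 to 173.4 in RLM, 200.2 and 248.1 in blood and 335.4 to 390.6 in BMDM. PBS Kupffer cells lay below blood without overlap (-0.48 ± 0.17, limma adjusted p = 0.0131), a call lost without Kupffer replicate 1 (-0.31) or either blood library (-0.47 and -0.53). It passed in none of the other 8 comparisons, where the log2 difference ran from -0.27 to 0.35. The region at the 3′ end (+47.5 kb, chr8:105217978-105218307) read 7.44 to 38.5 in 22 libraries and passed in none of the 7 comparisons that could test it.

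Over the 4 genes the count of called regions was set against that over all regions in each comparison. From blood to 24 h, 5 of 51 shared regions rose and 10 fell, against 16.7% and 9.33% of all regions. Of 103 regions called in either group, those with a peak in every library of one group and none of the other were 2 for 24 h and 7 for blood, against 3.02% and 4.49%. With no centring 2 of the shared regions were higher and 17 were lower. The 15 calls became 26 without 24 h replicate 3, 7 without blood replicate 1 and 8 without blood replicate 2. From 24 h to 48 h, 0 of 52 were higher and 4 lower, against 1.92% and 3.53%. Of 107 regions called in either group, 4 had a peak at 48 h only and 1 at 24 h only, against 5.09% and 0.609%. This contrast helped to choose the genes, and nothing is read from its counts.

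Between PBS Kupffer cells and 48 h RLM, 1 of 27 shared regions was higher and 3 lower in Kupffer cells, against 13.7% and 12.6%. Without 48 h replicate 2 there were 2 calls. Of 93 regions called in either group, 1 was called in Kupffer cells only, against 4.53%, and 36 at 48 h only, against 12.8%: 11 of Runx1, 12 of Runx2 and 13 of Runx3. Against blood, 5 of 25 were higher and 8 lower in Kupffer cells, against 25.7% and 25.3%, and without centring 3 were higher and 9 lower. Of 94 regions, 4 were called in Kupffer cells only and 39 in blood only, against 12.8% and 15.9%. All of these counts use the same 2 Kupffer libraries, and the peaks that chose the regions are those counted, so the last of them are a description.

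In TIM4+ Nr1h3 knockout cells 3 of 30 shared regions were higher and 1 lower than in the control, against 4.86% and 3.91%, and without centring 1 was higher and 1 lower. There were 2 calls without knockout replicate 1 and without either control library. Of 55 regions called in either group, 1 was called only in knockout and 2 only in control cells, against 1.06% and 7.69%. In TIM4- knockout cells 4 of 35 were higher and 1 lower, against 7.03% and 6.68%, with 3 calls without knockout replicate 1. There, 13 of 73 were called only in knockout cells and 1 only in the control, against 6.60% and 3.50%. The 13 were 6 of Runx1, 3 of Runx2 and 4 of Runx3. Between TIM4- and TIM4+ knockout cells limma called 0 of 31 higher and 0 lower, against 0.607% and 1.50%, and 4 had an unadjusted p under 0.05. In that comparison 14 of 73 were called in TIM4- cells only and 0 in TIM4+ cells only, against 10.9% and 0.559%. The TIM4- libraries had 41.3% to 43.8% of their tags in peaks, the control 26.0% to 33.4% and the TIM4+ knockout 21.9% to 26.6%, and centring removed log2 shifts of 0.40 against the control and 0.75 between the 2 knockout groups. Without centring, 15 regions were higher in TIM4- cells than in the control and 22 higher than in TIM4+ knockout cells, with 0 lower in both. Quantile normalisation gave 3 higher and 0 lower in TIM4- cells against the control.

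In titled Smad4 knockouts 5 of 30 shared regions were higher and 0 lower than in titled controls, against 1.57% and 1.50%, and 3 of the 5 were Runx3 regions of 8 shared. Besides +72.4 kb these were +58.6 kb (1.21 ± 0.30, limma adjusted p = 0.00953) and +39.7 kb (1.08 ± 0.33, limma adjusted p = 0.0473), each lost without either titled knockout library (1.23 and 1.15, and 1.04 and 1.09) and without centring (0.87 and 0.75). The +58.6 kb call was also lost without either titled control library (1.12 and 1.25), and the +39.7 kb call without titled control replicate 2 (0.60), after quantile normalisation (0.90) and when merging needed an overlap of 100 bp (1.07). Of 53 regions called in either group, 1 was called in titled knockouts alone and 1 in titled controls alone, against 1.24% and 6.97%. Centring removed a log2 shift of -0.34, and 15.4% to 19.6% of tags lay in peaks in titled knockouts against 19.5% to 25.2% in titled controls. Without centring 2 regions were higher, and without any 1 of the 4 libraries 3 were.

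With DLL4, 5 of 70 shared regions were higher and 4 lower, against 2.36% and 1.52% of all regions. The 4 lower were of Runx1, where 1 was higher, and 4 of 11 shared Runx3 regions were higher. Runx2 had 24 shared regions and no call, with its largest difference at -0.91. Of 117 regions called in either group, 3 were called with DLL4 only and 1 in untreated cells only, against 2.10% and 2.00%. Without untreated replicate 1 the calls were 2, both of Runx3.

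**Figure D5:**
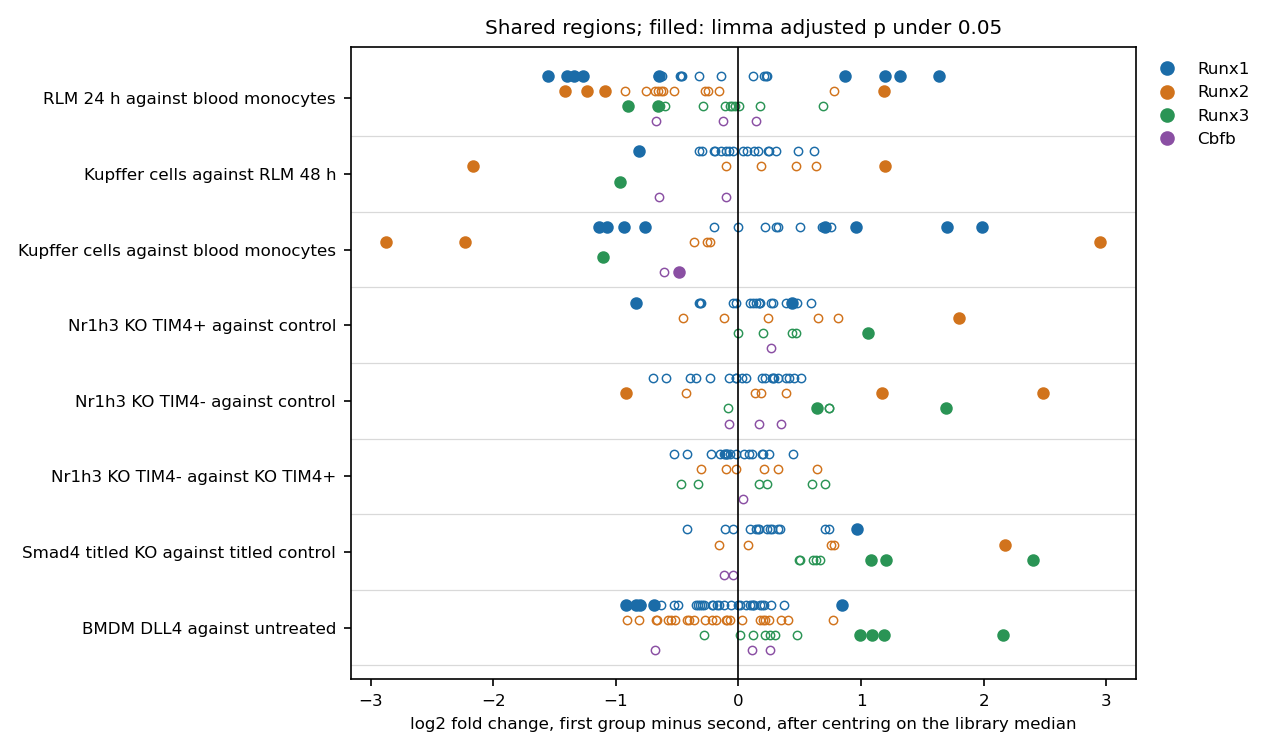
Log2 fold changes of every shared region of the 4 genes (colours) in the 8 comparisons other than 48 h against 24 h, as the first group minus the second after centring (horizontal axis); filled points passed at a limma adjusted p under 0.05. The points farthest from 0 on the left are Runx2 regions in PBS Kupffer cells, and in the Smad4 comparison and that of TIM4- cells with the control the rightmost filled points are of Runx2 and Runx3.

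The genes that work with RUNX proteins were read from 3 lists. Cofactors such as the TLE corepressors, histone acetyltransferases and deacetylases (15 genes, 205 regions) had few calls between PBS Kupffer cells and 48 h RLM: of 47 shared regions 1 was higher (Tle1, 0.48) and 4 were lower (Cbfa2t2, Cbfa2t3 and 2 of Tle3), with a median log2 difference of -0.09 against -0.01 over all regions. Factors that act with RUNX1 in blood cells (17 genes, 364 regions) had 6 higher and 22 lower of 120, with a median of -0.17. The lower ones included 8 regions of Etv6, an ETS repressor (-1.68 to -0.70), 4 of Spi1, which encodes PU.1 (-0.75 to -0.58), and 3 of Irf8, while the higher ones included 3 of Ets1 (0.95 to 1.62) and 2 of Cebpa (0.57 and 1.22). Of 46 shared regions of known RUNX target genes (18 genes found of 19, 153 regions), 1 was higher (Mmp13, 0.94) and 9 were lower, among them 2 of Cd244a (-1.47 and -1.03) and 2 of Itgal, the integrin alpha-L gene (-1.11 and -0.71), with a median of -0.34. All regions passed at 13.7% higher and 12.6% lower.

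The shares of all regions that passed, higher and then lower, were 16.7% and 9.33% at 24 h against blood, 25.7% and 25.3% in Kupffer cells against blood, 4.86% and 3.91% in TIM4+ and 7.03% and 6.68% in TIM4- knockout cells, 1.57% and 1.50% in the Smad4 comparison and 2.36% and 1.52% with DLL4. Beside these, the target genes had 4 higher and 6 lower of 53 at 24 h against blood, 6 and 14 of 37 in Kupffer cells against blood, 3 and 0 of 45 in TIM4+ and 7 and 3 of 49 in TIM4- knockout cells, 0 and 0 of 46 in the Smad4 comparison and 4 and 3 of 82 with DLL4. In TIM4- knockout cells the higher ones were of Ccl5, Cd4, Csf1r, Csf2 and Mmp13, and the 3 lower ones were all of Csf2rb, the shared beta chain of the GM-CSF receptor. With DLL4 both Mmp13 regions that passed rose (0.85 and 1.38), and a region of Itgam, the integrin alpha-M gene, fell (-1.21). The partner factors had 17 higher and 15 lower of 122 at 24 h against blood, 26 and 23 of 99 in Kupffer cells against blood, 3 and 2 of 104 in TIM4+ and 6 and 5 of 121 in TIM4- knockout cells, 5 and 0 of 108 in the Smad4 comparison and 4 and 3 of 177 with DLL4. The cofactors had 10 and 4 of 57, 12 and 10 of 40, 3 and 4 of 53, 5 and 5 of 65, 1 and 1 of 51 and 1 and 2 of 94 in the same order.

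Markers of the cells that a sort could hold were listed beside these results. The 13 Kupffer cell markers (255 regions) had peaks in 134 to 135 regions in PBS Kupffer cells, 106 to 128 at 48 h, 65 to 83 at 24 h and 49 to 61 in blood. In the Nr1h3 groups they had 139 to 144 in the control, 109 to 123 in TIM4+ and 128 to 130 in TIM4- knockout cells, and in the Smad4 groups 129 to 144 in titled controls and 89 to 116 in titled knockouts. BMDM had 109 to 130 untreated and 130 to 131 with DLL4. Of all regions, 39.6% to 41.5% had a peak in PBS Kupffer cells, 47.7% to 53.5% at 48 h, 40.5% to 43.9% at 24 h and 42.1% to 45.7% in blood. The share was 31.0% to 43.6% over the Nr1h3 groups, 31.3% to 42.8% over the Smad4 groups and 54.5% to 66.4% over BMDM. The 11 monocyte markers (133 regions) had 41 to 45 in PBS Kupffer cells, 64 to 78 at 48 h, 51 to 59 at 24 h and 70 to 75 in blood, with 44 to 46 in the Nr1h3 control, 28 to 33 in TIM4+ and 45 to 51 in TIM4- knockout cells, 43 to 50 in titled Smad4 controls, 29 to 39 in titled knockouts, 71 to 79 in untreated BMDM and 65 to 66 with DLL4. In TIM4- knockout cells against the control, 6 of 95 shared Kupffer marker regions were higher and 21 lower, against 7.03% and 6.68% of all regions. Of the monocyte marker regions, 3 of 32 were higher and 6 lower. In TIM4+ knockout cells the Kupffer marker counts were 5 and 5 of 98 and the monocyte marker counts 1 and 0 of 22, against 4.86% and 3.91%. In the Smad4 comparison 0 of 78 Kupffer marker regions were higher and 6 lower, and 4 of 27 monocyte marker regions were higher and 0 lower in titled knockouts. The shares of all regions were 1.57% and 1.50%. With DLL4, 16 of 97 Kupffer marker regions were higher and 3 lower, and 0 of 51 monocyte marker regions were higher and 3 lower. All regions passed at 2.36% higher and 1.52% lower. Of the 18 shared T and NK regions in TIM4- knockout cells against the control, 2 were higher and 0 lower. Between PBS Kupffer cells and 48 h RLM, the lists of B cell, neutrophil, dendritic cell, hepatocyte, liver endothelial and stellate cell markers had 1, 1, 1, 2, 7 and 0 shared regions higher and 0, 0, 1, 1, 3 and 0 lower, of 8, 10, 19, 6, 23 and 5. In that comparison 13.7% of all regions were higher and 12.6% lower. The part of these cells in the results was not tested.

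The genes whose pattern over the 11 groups was most like each member were found by Pearson correlation of the summed signal of a gene's regions, relative to the library median, among 9164 genes with at least 5 regions. For Runx3 they were Crybg2 (r = 0.963), Napsa (0.963) and Osm (0.960), for Runx1 Tm6sf1 (0.934), Pld4 (0.906) and Iffo2 (0.897), for Runx2 S100a10 (0.989), Nup133 (0.984) and Dut (0.983) and for Cbfb Dgkd (0.980), Clec16a (0.974) and Med13l (0.969). Among the members themselves r was 0.80 between Runx2 and Cbfb, 0.52 between Runx2 and Runx3 and 0.29 between Runx1 and Runx2. The 11 points of each value share library depth and the share of tags in peaks, and no test was made.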

How the data were processed

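ATAC-seq of 23 libraries in 11 groups was taken from the deposited peak lists. Bowtie2, HOMER and the mm10 build are named in the submitters' processing notes; their versions are not given in the sources used here. As signal, the authors deposited 1 normalised tag count per peak, per the file headers scaled to 10 M tags per library, with peaks called in each library alone (200 bp, false discovery rate 0.001, 4 times the surrounding 10 kb). Depth was 10.4 to 18.4 M tags. Each library's lowest deposited value was 3.81 to 6.71, so a missing peak is a value below threshold and not 0.

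Here peaks overlapping by 1 bp or more were merged, and 1205 of 1605886 peaks off the 19 autosomes and X were left out. The strongest peak of a library stood for a region that held more than 1. Regions went to the nearest of 21631 protein-coding gene bodies (RefSeq, GRCm38.p6) within 50 kb. Signal was compared with limma 3.58.1 in R 4.3.3 on log2(value + 1) in regions with a peak in each library of the compared groups, after centring by the library median, with a mean-variance trend, a two-sided moderated test and Benjamini-Hochberg adjustment over all such regions (threshold 0.05), and checked on simulated data. Pearson correlations and counts used Python 3.11.15 and pandas 2.3.3. Members and lists were chosen with earlier results of these data known. Regions were named at gene ends, as the strongest, as the largest calls per gene and comparison, as the strongest called in 1 group only, and at the 50 kb limit; a few others of the same gene are named beside them. Alternatives were no centring, quantile normalisation, a pseudocount of 5, a mean signal of at least 20, peaks of at least 15, merging at 100 bp, assignment within 10 kb, a replicate block and leaving out each library; equal-length lists were added after the data were seen. No whole-genome sequence was used, so sequences are given for promoters only.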

Additional observations from a re-analysis of the deposited data

How the results depend on the processing

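Counts of called regions over the 4 genes changed as follows. Leaving out 1 library gave 7 to 26 for 24 h against blood (main value 15), 1 to 5 for 48 h against 24 h (4), 2 to 5 for Kupffer cells against 48 h (4), 9 to 14 against blood (13, within 1.5 times), 2 to 4 in TIM4+ knockout cells (4), 3 to 5 in TIM4- knockout cells (5), 0 to 1 between the knockout groups (0), 3 in each case in the Smad4 comparison (5) and 2 to 9 with DLL4 (9). Except where a 24 h library was left out, such fits leave 1 library in a group, which is assumed to vary like the other group. Without centring the counts were 2 in TIM4+ knockout cells, 15 in TIM4- knockout cells, 22 between the knockout groups and 2 in the Smad4 comparison. Quantile normalisation gave 3 in TIM4- knockout cells. Peaks of at least 15 gave 2 in TIM4+ and 2 in TIM4- knockout cells and 1 in the Smad4 comparison, where a mean signal of at least 20 gave 3. Assignment within 10 kb gave 2 in TIM4+ knockout cells. Of 59 called results for single regions, 22 kept the call under every alternative, and over 598 alternatives 500 kept it, 98 lost it and 0 reversed. The 59 include the 4 calls of 48 h against 24 h, 1 of them of Runx1. That contrast helped to choose the genes, so nothing is read from its part of these counts. The cause of the changes was not tested.

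The titles number the replicates of the Nr1h3 and BMDM libraries, and whether same-numbered libraries were paired is not known from them. Deviations of same-numbered libraries correlated at 0.0088, -0.0043 and 0.061 in the Nr1h3 comparisons and -0.038 in BMDM. With 2 pairs each, these values cannot settle whether the samples were paired. With the replicate block the counts were 5 in TIM4+ knockout cells, 6 in TIM4- knockout cells, 0 between the knockout groups and 9 with DLL4. When each list was cut to its 48720 strongest peaks, an alternative chosen after seeing the data, Runx3 kept 1 region in each PBS Kupffer library and 14 in each 48 h library, whereas Runx2 had 5 to 7 and 6 to 10 and Runx1 had 19 and 18 to 20, ranges that overlapped. Depth limits regions near the calling threshold, where no peak does not mean closed chromatin, and groups of 2 limit every p-value.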
